A study of Mus musculus with 32 samples.

Results

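Dbp, Tef and Hlf encode the PAR bZIP transcription factors, and Nfil3 encodes a repressor that binds the same DNA element. These 4 genes were taken by name and found on the array through the RefSeq identifier that the scanner files give for each probe, with the version dropped. They are 4 of the 23109 genes tested and have 5 of the 55681 distinct probes, 2 of them for Dbp. RNA from the livers of 32 singly housed male mice, wild-type C57BL/6, had been hybridised to 1-colour (Cy3) Agilent arrays, with a separate array for each mouse. Chronic jet lag (CJ) was given to 16 mice, which from the age of 4 weeks were shuttled between mouse rooms with light onsets 8 h apart. The other 16 mice stayed in steady cycles of 12 h light and 12 h dark (NS). Livers were taken 2, 10 and 18 h after light onset (zeitgeber times ZT2, ZT10 and ZT18) at 30 and at 12 weeks of age. With 2 schedules and 2 ages there were 12 groups, of 2 mice where the time was ZT2 and of 3 mice otherwise. How ZT in CJ mice stands to their latest room change is not given in the labels, nor whether they still followed the light cycle, so equal ZT need not mean equal internal time. With 3 times, 8 h apart, a peak that moved between sampling times cannot be told apart from a rhythm of lower amplitude.

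PAR bZIP proteins carry a proline- and acidic-rich domain beside a basic leucine zipper and activate genes from D-box elements. NFIL3, also called E4BP4, occupies D-boxes and represses. In liver, the clock activators BMAL1 and CLOCK drive Dbp from E-boxes, and REV-ERB repressors act on Nfil3, so activators and repressor normally peak at opposite times of day. Between them they time genes of drug, haem and bile acid metabolism. Mice that lack Dbp, Tef and Hlf together have seizures and die early.

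The promoters of the 4 genes are shown because in NS mice the 3 activators moved together over the day and Nfil3 moved the other way. Each sequence holds the 250 bases before a RefSeq start site (build GRCm38.p6), written 5′ to 3′ on the gene's own strand, and Tef has 2 windows. The start site need not be the outermost one of the gene. The Dbp window runs past the first annotated base of its gene (45705100). The Nfil3 window lies within its annotated gene (52967209 to 52982878), as does the downstream Tef window.
Dbp, chr7:45704997-45705246, plus strand: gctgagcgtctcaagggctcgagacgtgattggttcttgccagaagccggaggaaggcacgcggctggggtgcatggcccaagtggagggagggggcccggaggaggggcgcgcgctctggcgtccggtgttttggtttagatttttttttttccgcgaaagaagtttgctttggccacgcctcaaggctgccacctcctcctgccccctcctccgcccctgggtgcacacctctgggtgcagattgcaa
Tef, upstream start, chr15:81802423-81802672, plus strand: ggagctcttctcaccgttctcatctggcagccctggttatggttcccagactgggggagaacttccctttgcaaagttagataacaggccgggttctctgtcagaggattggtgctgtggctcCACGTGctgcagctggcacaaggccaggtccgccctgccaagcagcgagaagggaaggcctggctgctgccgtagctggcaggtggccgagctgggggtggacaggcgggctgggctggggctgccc
Tef, downstream start, chr15:81811164-81811413, plus strand: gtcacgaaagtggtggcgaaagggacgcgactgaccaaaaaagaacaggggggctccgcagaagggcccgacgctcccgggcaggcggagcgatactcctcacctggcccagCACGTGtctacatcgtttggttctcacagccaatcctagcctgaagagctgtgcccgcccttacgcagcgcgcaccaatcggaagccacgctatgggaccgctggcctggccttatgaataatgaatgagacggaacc
Hlf, chr11:90390918-90391167, minus strand: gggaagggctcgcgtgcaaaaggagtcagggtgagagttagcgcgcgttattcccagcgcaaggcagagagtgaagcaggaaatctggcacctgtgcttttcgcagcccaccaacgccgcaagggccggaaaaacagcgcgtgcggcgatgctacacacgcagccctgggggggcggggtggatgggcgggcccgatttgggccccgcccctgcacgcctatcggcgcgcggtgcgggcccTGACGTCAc
Nfil3, chr13:52981040-52981289, minus strand: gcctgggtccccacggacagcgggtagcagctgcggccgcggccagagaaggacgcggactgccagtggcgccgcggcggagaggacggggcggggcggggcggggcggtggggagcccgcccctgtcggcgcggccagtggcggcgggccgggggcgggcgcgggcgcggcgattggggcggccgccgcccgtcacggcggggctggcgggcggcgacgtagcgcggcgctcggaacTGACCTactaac

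Capitals mark matches, on either strand, to 5 short motifs that clock factors are known to use, picked after the windows had been read. These were the E-box CACGTG, the D-box spellings TTACGTAA and TTATGTAA, the CRE TGACGTCA bound by CREB, and AGGTCA, the half-site of nuclear receptors such as REV-ERB and ROR. Both Tef windows held an E-box, which 6.02% of the 32851 RefSeq windows of this length hold. The Hlf window held a CRE, present in 1.55% of windows, and the Nfil3 window held the half-site on the opposite strand, present in 14% of windows. The D-box spellings, found in 0.113% and 0.819% of windows, and the other motifs had no match in the Dbp window. No matches overlapped. A match of this kind is a description of letters, and a window without one says nothing about whether the factor binds there or elsewhere in the gene.

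Levels are given as log2 of the scanner's processed signal minus the 75th percentile of the array, so 0 is the level of that percentile and a step of 1 is a factor of 2. Such levels compare samples for 1 probe and do not rank different genes. All 5 probes were well above background on 32 of 32 arrays. The 2 Dbp probes correlated at 0.997 over the 32 arrays and differed by at most 0.39, and the brighter probe stands for the gene below. Per array, 43.4% to 58.1% of probes were well above background and 0 spots were saturated. The tissue label fitted its markers: all 10 hepatocyte genes were well above background on all 32 arrays, and their mean level lay between 7.86 and 8.26.

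Some livers also carried RNA of other tissues. The mean level of 13 pancreatic acinar genes ran from -3.35 to 3.88 and was above 0 on 10 arrays, and that of 12 skeletal muscle genes ran from -5.08 to 2.69 and was above 0 on 9 arrays. Every gene of both lists was well above background on at least 1 array. Acinar-rich arrays were found in 7 CJ and 3 NS mice, and muscle-rich arrays in 5 CJ and 4 NS mice. No array at ZT2 was muscle-rich and 1 was acinar-rich. All 4 muscle-rich arrays of NS mice were at ZT18, and those of CJ mice were at ZT10 and ZT18. The NS mean muscle level at ZT18 was 0.66 at 30 weeks and 0.18 at 12 weeks. At ZT10 it was -3.69 and -3.63, so muscle level and time of day ran together in NS mice. Within groups, the members' deviations correlated with the acinar level between -0.347 (Dbp) and 0.142 (Nfil3) and with the muscle level between -0.147 (Dbp) and 0.284 (Nfil3). Calls and differences of the 4 genes, and counts over gene lists, that moved when these arrays were left out are given below. The part of these tissues in them was not tested further. Leaving the arrays out also left a lone mouse in some groups, such as CJ mouse 1 of ZT10 without the acinar-rich arrays. Other tissue and fewer mice therefore cannot be told apart where a call was lost in these settings. In bulk liver, fewer cells of a type and less RNA per cell cannot be told apart.

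**Figure D1:**
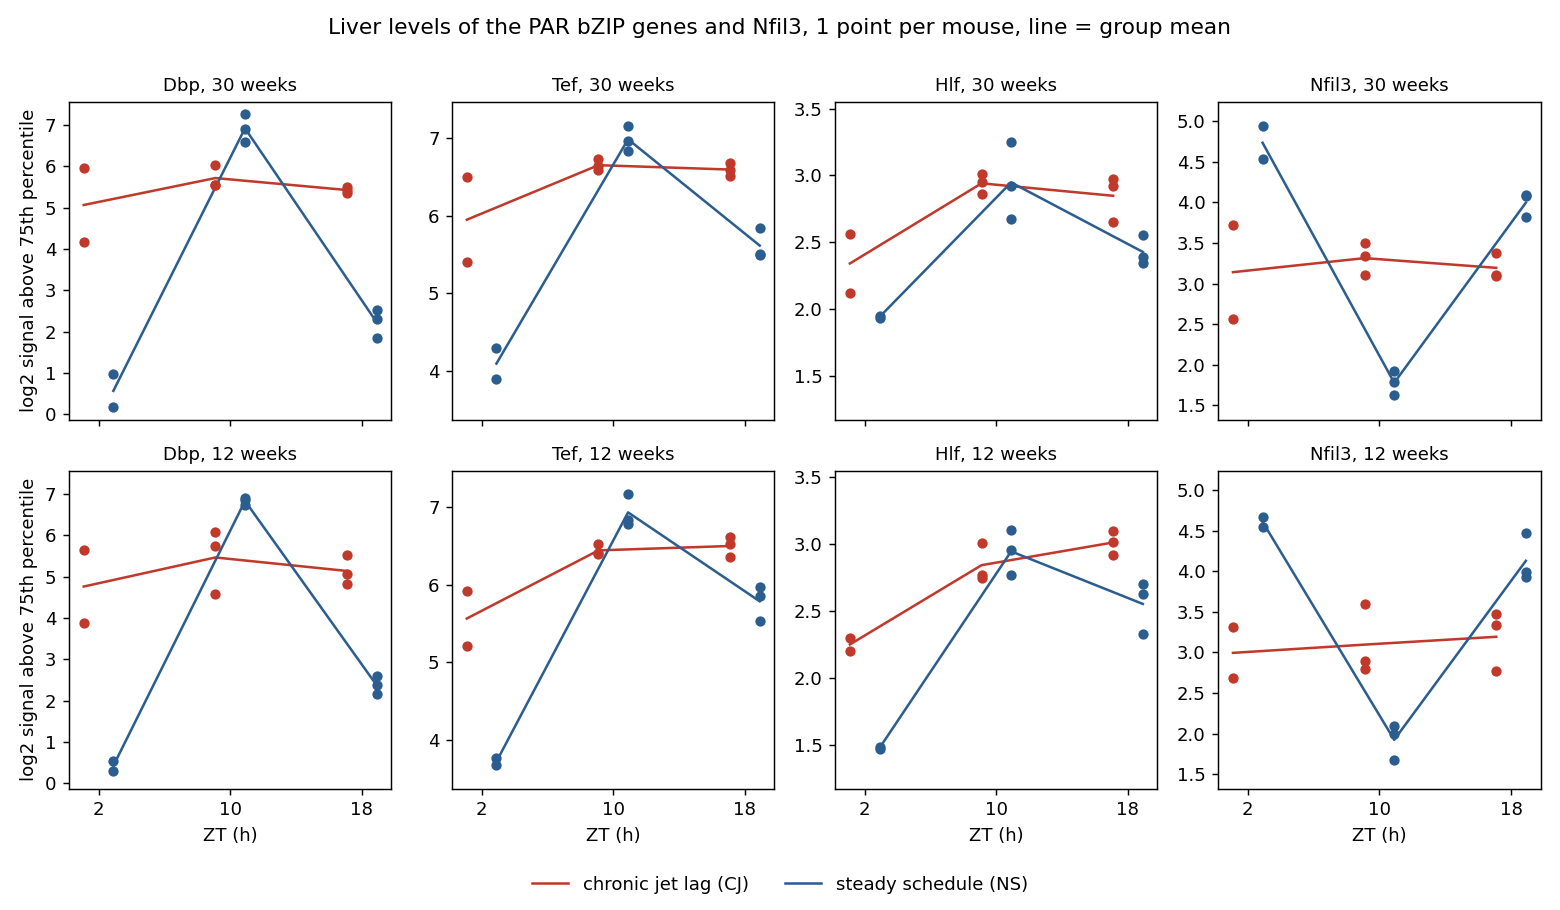
Level of each gene (log2 of the signal over the array's 75th percentile, y axis) by zeitgeber time in hours (x axis), with 30-week mice in the upper and 12-week mice in the lower row. Each point is a mouse and lines join group means, with CJ in red on the left and NS in blue on the right of each time. The CJ group means of Dbp and Nfil3 range over 0.69 and 0.10 at 30 weeks, against 6.22 and 2.94 in NS, while the 2 CJ mice at ZT2 lie apart from each other.

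Dbp, the activator named for the albumin D-box, showed the widest profile of the 4. At 30 weeks and ZT2 its level was 5.95 and 4.18 in CJ mice, against 0.97 and 0.17 in NS mice. At ZT10 it was 6.04, 5.56 and 5.55 in CJ mice, against 7.26, 6.91 and 6.59 in NS mice. At ZT18 it was 5.42, 5.35 and 5.51 in CJ mice, against 1.86, 2.30 and 2.53 in NS mice. Every CJ mouse lay above every NS mouse at ZT2 and ZT18 and below every NS mouse at ZT10.

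The 12-week mice, separate animals, had the same order. Dbp at ZT2 was 3.87 and 5.65 in CJ mice, against 0.30 and 0.55 in NS mice. At ZT10 it was 6.09, 4.57 and 5.73 in CJ mice, against 6.73, 6.91 and 6.85 in NS mice. At ZT18 it was 5.52, 5.07 and 4.82 in CJ mice, against 2.15, 2.59 and 2.38 in NS mice. Again the schedules did not overlap at any of the 3 times. The 6 CJ group means all lay between those of NS ZT10 and NS ZT18. In the order of the 12 group means, neighbours were separated without overlapping mice at 3 of 11 steps: below the NS ZT10 groups (a gap of 1.12), below the CJ groups (2.39) and below the NS ZT18 groups (1.66).

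Tef, another of the activators, had a narrower profile. At 30 weeks it read 6.50 and 5.40 in CJ mice at ZT2, against 4.29 and 3.90 in NS mice. At ZT10 it read 6.73, 6.59 and 6.64 in CJ mice, against 7.16, 6.96 and 6.84 in NS mice. At ZT18 it read 6.59, 6.68 and 6.52 in CJ mice, against 5.50, 5.51 and 5.84 in NS mice. As for Dbp, the CJ mice were the higher ones at ZT2 and ZT18 and the lower ones at ZT10, with no overlap.

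At 12 weeks Tef at ZT2 was 5.21 and 5.92 in CJ mice, against 3.77 and 3.67 in NS mice. At ZT10 the CJ mice had 6.52, 6.41 and 6.40, against 6.84, 7.17 and 6.79 in NS mice. At ZT18 the CJ mice had 6.61, 6.36 and 6.53, against 5.53, 5.97 and 5.86 in NS mice. The schedules were separate at all 3 times. The widest step in the order of its group means, 1.47, lay between the lowest CJ group (ZT2, 12 weeks) and NS ZT2 at 30 weeks, and 8 of 11 neighbouring groups overlapped.

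Hlf, the third PAR bZIP activator, moved least. At 30 weeks it was 2.56 and 2.12 in CJ mice at ZT2, against 1.95 and 1.93 in NS mice. At ZT10 it was 2.86, 2.95 and 3.01 in CJ mice, against 2.92, 2.67 and 3.25 in NS mice. At ZT18 it was 2.92, 2.97 and 2.65 in CJ mice, against 2.39, 2.34 and 2.55 in NS mice. The schedules were separate at ZT2 and ZT18 and overlapped at ZT10.

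At 12 weeks Hlf was 2.20 and 2.30 in CJ mice at ZT2, against 1.48 and 1.47 in NS mice. At ZT10 it was 2.77, 2.75 and 3.01 in CJ mice, against 2.96, 3.11 and 2.77 in NS mice. At ZT18 it was 3.10, 2.92 and 3.02 in CJ mice, against 2.33, 2.70 and 2.63 in NS mice. The separation at ZT2 and ZT18 and the overlap at ZT10 were seen again. No step in the order of its 12 group means exceeded 0.47.

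Nfil3, the repressor, ran opposite to the activators in NS mice. At 30 weeks and ZT2 it was 2.56 and 3.72 in CJ mice, against 4.53 and 4.94 in NS mice. The ZT10 levels were 3.50, 3.34 and 3.10 in CJ mice, against 1.79, 1.92 and 1.62 in NS mice. The ZT18 levels were 3.38, 3.11 and 3.09 in CJ mice, against 4.09, 3.82 and 4.08 in NS mice. Every CJ mouse was below every NS mouse at ZT2 and ZT18 and above every NS mouse at ZT10, the reverse of Dbp.

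At 12 weeks Nfil3 was 3.31 and 2.68 in CJ mice at ZT2, against 4.55 and 4.67 in NS mice. At ZT10 it was 2.90, 3.60 and 2.79 in CJ mice, against 2.09, 2.00 and 1.68 in NS mice. At ZT18 it was 2.77, 3.47 and 3.34 in CJ mice, against 3.93, 3.99 and 4.47 in NS mice. The schedules did not overlap at any time. Its 6 CJ group means formed a band 0.69 below the lower NS ZT18 mean and 1.07 above the higher NS ZT10 mean, and mice of neighbouring groups within the band overlapped.

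The first comparison asked whether each gene varied over the day within a schedule and age. The daily range is the highest minus the lowest of the 3 fitted group means, and a call means a limma F test with a Benjamini-Hochberg adjusted p under 0.05 over all genes. In CJ mice 0 of 4 were called at 30 weeks and 2 of 4, Tef and Hlf, at 12 weeks, where 3.71% and 5.67% of genes were called. In NS mice all 4 genes were called at both ages, where 11.2% of genes were called at 30 weeks and 17.5% at 12 weeks. Of the uncalled CJ tests at 30 weeks, those of Tef and Hlf had an unadjusted p under 0.05 (0.0252 and 0.00313). Hlf was called there with quantile normalization (adjusted p = 0.044), and with the authors' deposited table in place of the scanner values (range 0.64, adjusted p = 0.00417).

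Dbp ranged over 0.69 in CJ mice (adjusted p = 0.695) and 6.22 in NS mice (adjusted p = 7.31e-08) at 30 weeks. At 12 weeks it ranged over 0.76 (adjusted p = 0.623) in CJ mice and 6.55 (adjusted p = 1.31e-08) in NS mice. Of 23109 genes, its CJ range ranked 2983rd at 30 weeks and 2848th at 12 weeks, and its NS range ranked 9th and 4th. The NS peak at ZT10 and trough at ZT2 were 74.5-fold apart at 30 weeks and 93.6-fold apart at 12 weeks.

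Tef ranged over 0.64 in CJ mice (adjusted p = 0.212) and 2.85 in NS mice (adjusted p = 1.61e-07) at 30 weeks, and over 1.00 in CJ (adjusted p = 0.0109) and 3.25 in NS mice (adjusted p = 1.31e-08) at 12 weeks. For Hlf the ranges were 0.57 in CJ mice (adjusted p = 0.0676) and 1.02 in NS mice (adjusted p = 0.000285) at 30 weeks, and 0.80 in CJ (adjusted p = 0.00449) and 1.44 in NS mice (adjusted p = 3.13e-06) at 12 weeks. Nfil3 had ranges of 0.10 in CJ mice (adjusted p = 0.983) and 2.94 in NS mice (adjusted p = 1.24e-06) at 30 weeks, and of 0.27 in CJ (adjusted p = 0.864) and 2.72 in NS mice (adjusted p = 8.97e-07) at 12 weeks. The median range over all genes was 0.27 in CJ mice and 0.31 in NS mice at 30 weeks, and 0.29 in CJ and 0.34 in NS mice at 12 weeks. The CJ ranges of Dbp and Nfil3 rest on averaging 2 unlike mice at ZT2. At 30 weeks the Dbp range was 1.65 (adjusted p = 0.239) without CJ mouse 1 of ZT2 and 0.72 (adjusted p = 0.811) without mouse 2, and at 12 weeks it was 0.45 (adjusted p = 0.814) without mouse 1 and 1.64 (adjusted p = 0.269) without mouse 2. For Nfil3 it was 0.58 (adjusted p = 0.657) and 0.71 (adjusted p = 0.574) at 30 weeks, and 0.58 (adjusted p = 0.589) and 0.18 (adjusted p = 0.96) at 12 weeks, without mouse 1 and mouse 2 in that order. So the Nfil3 range, below the median gene with all mice, was above it in 3 of these 4 cases, while neither gene was called in any of them.

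The CJ calls of Tef and Hlf at 12 weeks were lost without 1 mouse, which left a lone mouse in the CJ ZT2 group. With all mice their ranges were 1.00 and 0.80. The 2 CJ mice of ZT2 lay apart for Tef (5.21 and 5.92) and close together for Hlf (2.20 and 2.30). Without CJ mouse 1 of ZT2 at that age the range of Tef was 0.65 and that of Hlf was 0.75. That mouse also had the acinar-rich array of ZT2, with a mean acinar level of 1.42. Without all 10 acinar-rich arrays the ranges were 0.81 (adjusted p = 0.327) and 0.73 (adjusted p = 0.116), and without the 9 muscle-rich arrays they were 1.01 (adjusted p = 0.152) and 0.72 (adjusted p = 0.0935). At 30 weeks the uncalled range of Tef became 1.22 (adjusted p = 0.0045) without CJ mouse 1 of ZT2 and 0.11 (adjusted p = 0.97) without CJ mouse 2 of that group. That of Hlf became 0.59 (adjusted p = 0.0363) without NS mouse 1 of ZT18 at 12 weeks and 0.37 (adjusted p = 0.672) without CJ mouse 2 of ZT2 at 30 weeks. Leaving out any 1 mouse took no call away from the 8 NS daily ranges.

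**Figure D2:**
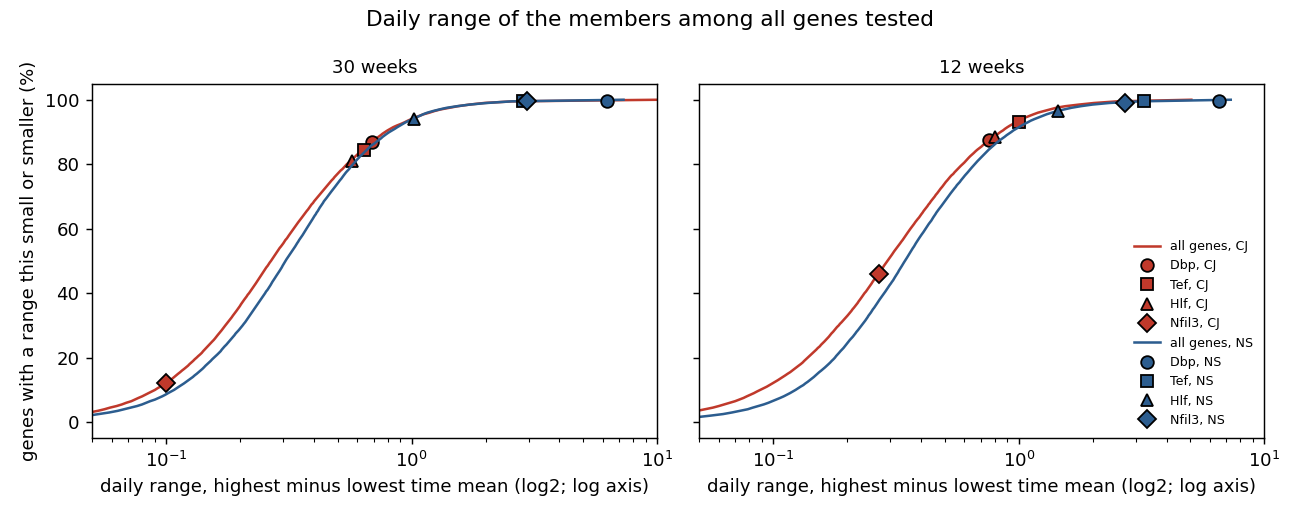
Share of all genes whose daily range is at or below a value (y axis, percent) against the daily range (x axis, log2 units on a log axis), at 30 weeks on the left and 12 weeks on the right, with CJ in red and NS in blue. Symbols mark the 4 genes on the curve of their schedule, and all 4 sit further left on the CJ curve than on the NS curve.

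Pairs of times gave the shape of the profiles. In NS mice the step from ZT2 to ZT10 was called for all 4 genes at both ages, where 7.17% of genes were called at 30 weeks and 8.44% at 12 weeks, and was upward for Dbp, Tef and Hlf and downward for Nfil3. The step from ZT10 to ZT18 was called for all 4 in the other direction, where 10.1% of genes were called at 30 weeks and 14.4% at 12 weeks. For Hlf this step was -0.49 ± 0.14 (SE, adjusted p = 0.0246) at 30 weeks and -0.44 ± 0.14 (adjusted p = 0.0352) at 12 weeks, and the call was lost without 3 and 5 of the 32 mice in turn. By ZT18 Tef was still above its ZT2 level in NS mice, by 1.60 ± 0.23 (adjusted p = 0.000427) at 30 weeks and 1.98 ± 0.23 (adjusted p = 1.11e-05) at 12 weeks, where 1.31% and 5.42% of genes were called. Hlf was above it by 1.00 ± 0.15 (adjusted p = 0.000388) at 12 weeks, and its 0.53 ± 0.15 at 30 weeks was not called (adjusted p = 0.0882). Dbp at ZT18 was above its ZT2 level by 1.91 ± 0.49 (adjusted p = 0.0231) at 12 weeks, a call lost without 3 of the mice in turn. Its 1.66 ± 0.49 at 30 weeks was not called (adjusted p = 0.097). For Nfil3 the difference between these times was -0.75 ± 0.29 (adjusted p = 0.242) at 30 weeks and -0.46 ± 0.29 (adjusted p = 0.381) at 12 weeks.

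In CJ mice the called steps were those of Tef and Hlf at 12 weeks away from ZT2, where 3.99% of genes were called for ZT10 and 8.07% for ZT18. Tef was higher at ZT10 by 0.99 ± 0.23 (adjusted p = 0.0126) and at ZT18 by 1.00 ± 0.23 (adjusted p = 0.00765). Hlf was higher at ZT10 by 0.66 ± 0.15 (adjusted p = 0.0125) and at ZT18 by 0.80 ± 0.15 (adjusted p = 0.00187). From ZT10 to ZT18 the CJ differences at 12 weeks were 0.01 ± 0.20 for Tef and 0.14 ± 0.14 for Hlf, neither called, where 0.026% of genes were. At 30 weeks 0 of 4 genes were called for any pair of times, where 1.6% of genes were called from ZT2 to ZT10, 0% from ZT10 to ZT18 and 5.83% from ZT2 to ZT18, and Hlf came nearest, with ZT10 above ZT2 by 0.57 ± 0.15 (adjusted p = 0.0592).

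The second comparison tested whether the daily profile itself differed between schedules, as an interaction of schedule with time. Dbp, Tef and Nfil3 were called at both ages and Hlf at neither, where 1.87% of genes were called at 30 weeks and 1.93% at 12 weeks. The range of the CJ minus NS difference over the day was 5.53 for Dbp (adjusted p = 0.000532), 2.21 for Tef (adjusted p = 0.00239) and 3.03 for Nfil3 (adjusted p = 0.000932) at 30 weeks. At 12 weeks it was 5.78 for Dbp (adjusted p = 0.000186), 2.27 for Tef (adjusted p = 0.00144) and 2.86 for Nfil3 (adjusted p = 0.000987). For Hlf it was 0.45 (adjusted p = 0.449) at 30 weeks and 0.77 (adjusted p = 0.0973) at 12 weeks, against medians over all genes of 0.36 and 0.38. Without NS mouse 3 of ZT10 at 30 weeks, Hlf was called at 12 weeks with the same range (adjusted p = 0.0474).

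Without the arrays rich in other tissues the sizes stayed near these values while fewer passed the threshold. Without the acinar-rich arrays the ranges at 30 weeks were 5.22 for Dbp (adjusted p = 0.0557), 2.08 for Tef (adjusted p = 0.167) and 3.22 for Nfil3 (adjusted p = 0.0781). Without the muscle-rich arrays Tef had 2.16 (adjusted p = 0.116) and Nfil3 2.89 (adjusted p = 0.0864) at that age. At 12 weeks Tef missed the threshold in both cases, with 2.42 (adjusted p = 0.0556) and 2.27 (adjusted p = 0.0677). Leaving out any 1 mouse ended none of the 6 calls.

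The third comparison set CJ against NS mice at the same ZT. All SEs rest on a spread shared over the 12 groups. They do not show the wider spread of CJ mice at ZT2, where group SDs at 30 and 12 weeks were 1.25 and 1.26 for Dbp. For Tef those SDs were 0.78 and 0.51. At ZT2, where 1.39% of genes were called at 30 weeks and 0.247% at 12 weeks, Dbp, Tef and Nfil3 were called at both ages. Dbp was higher in CJ mice by 4.47 ± 0.53 (SE, adjusted p = 0.00017) at 30 weeks and 4.33 ± 0.53 (20.1-fold, adjusted p = 0.000335) at 12 weeks. Tef was higher by 1.93 ± 0.25 at 30 weeks (adjusted p = 0.00021) and 1.76 ± 0.25 at 12 weeks (adjusted p = 0.00133). Over 18 other settings the Dbp call was lost in 1 at 30 weeks and 2 at 12 weeks. The Tef call was lost in 1 at 30 weeks and 3 at 12 weeks. Without the muscle-rich arrays, none of them of ZT2, the 12-week differences were 4.3 for Dbp and 1.8 for Tef, neither called. Nfil3 was lower, with CJ minus NS at -1.55 ± 0.32 at 30 weeks (adjusted p = 0.0146) and -1.66 ± 0.32 at 12 weeks (adjusted p = 0.0254), and lost the call without 2 and 3 of the mice in turn. It was -0.95 (adjusted p = 0.368) without CJ mouse 1 of ZT2 at 30 weeks and -1.35 (adjusted p = 0.249) without CJ mouse 2 of ZT2 at 12 weeks. Hlf differed by 0.45 ± 0.17 at 30 weeks (adjusted p = 0.215) and 0.69 ± 0.17 at 12 weeks (adjusted p = 0.0904), which were not called.

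At ZT18, where 3.52% of genes were called at 30 weeks and 2.88% at 12 weeks, Dbp was higher in CJ mice by 3.06 ± 0.42 (adjusted p = 0.000344) at 30 weeks and 2.85 ± 0.42 (adjusted p = 0.000462) at 12 weeks. Tef was higher by 0.87 ± 0.20 at 30 weeks (adjusted p = 0.0147) and 0.78 ± 0.20 at 12 weeks (adjusted p = 0.0336). Hlf differed by 0.38 ± 0.13 at 30 weeks (adjusted p = 0.117) and was higher by 0.49 ± 0.13 at 12 weeks (adjusted p = 0.046). Nfil3 differed by -0.77 ± 0.26 at 30 weeks (adjusted p = 0.0991) and was lower at 12 weeks, with CJ minus NS at -0.94 ± 0.26 (adjusted p = 0.0496). The calls of Hlf and Nfil3 at 12 weeks were marginal, being lost without 21 and 27 of the 32 mice in turn, and those of Tef were lost without 3 mice at 30 weeks and 5 at 12 weeks.

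At ZT10, the NS peak of the activators, only Nfil3 was called, where 0.679% of genes were at 30 weeks and 1.81% at 12 weeks. It was higher in CJ mice by 1.48 ± 0.26 (adjusted p = 0.0122) at 30 weeks and 1.20 ± 0.26 (adjusted p = 0.019) at 12 weeks, and lost the call without 3 and 2 of the mice in turn. Dbp differed by -1.05 ± 0.42 at 30 weeks (adjusted p = 0.302) and -1.45 ± 0.42 at 12 weeks (adjusted p = 0.0785). Tef differed by -0.28 ± 0.20 at 30 weeks (adjusted p = 0.634) and -0.50 ± 0.20 at 12 weeks (adjusted p = 0.197). The 95% interval of the Dbp difference at 12 weeks was -2.33 to -0.57. Without CJ mouse 1 of ZT10 the difference was -1.94 (adjusted p = 0.0294), which left only CJ mice 2 and 3, whose arrays were acinar-rich (levels of 3.88 and 3.66), and without mouse 2 it was -0.96 (adjusted p = 0.319). Without all acinar-rich arrays, which left CJ mouse 1 of ZT10 alone at each age, the Dbp difference was -0.65 at 30 weeks and -0.59 at 12 weeks. For Hlf the difference was 0.00 at 30 weeks (adjusted p = 1) and -0.08 at 12 weeks (adjusted p = 0.807). Several calls at a single time were also lost without the arrays rich in other tissues, with the direction kept. Without the muscle-rich arrays Dbp at ZT18 was higher by 3.21 at 30 weeks, with only CJ mouse 3 against NS mouse 2. At 12 weeks it was higher by 3.19, with NS mouse 3 as the lone NS mouse. Without the acinar-rich arrays Nfil3 at ZT10 differed by 1.67 at 30 weeks and 0.95 at 12 weeks, again with CJ mouse 1 alone.

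CJ and NS mice were separate for Dbp, Tef and Nfil3 in all 6 combinations of time and age and for Hlf in the 4 outside ZT10. Separation alone is common with so few mice. At ZT2, with 2 mice against 2, it held for 51.9% of genes at 30 weeks and 43.7% at 12 weeks. At ZT10 the shares were 14.4% at 30 weeks and 18.6% at 12 weeks, and at ZT18 they were 23.4% at 30 weeks and 19.7% at 12 weeks.

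**Figure D3:**
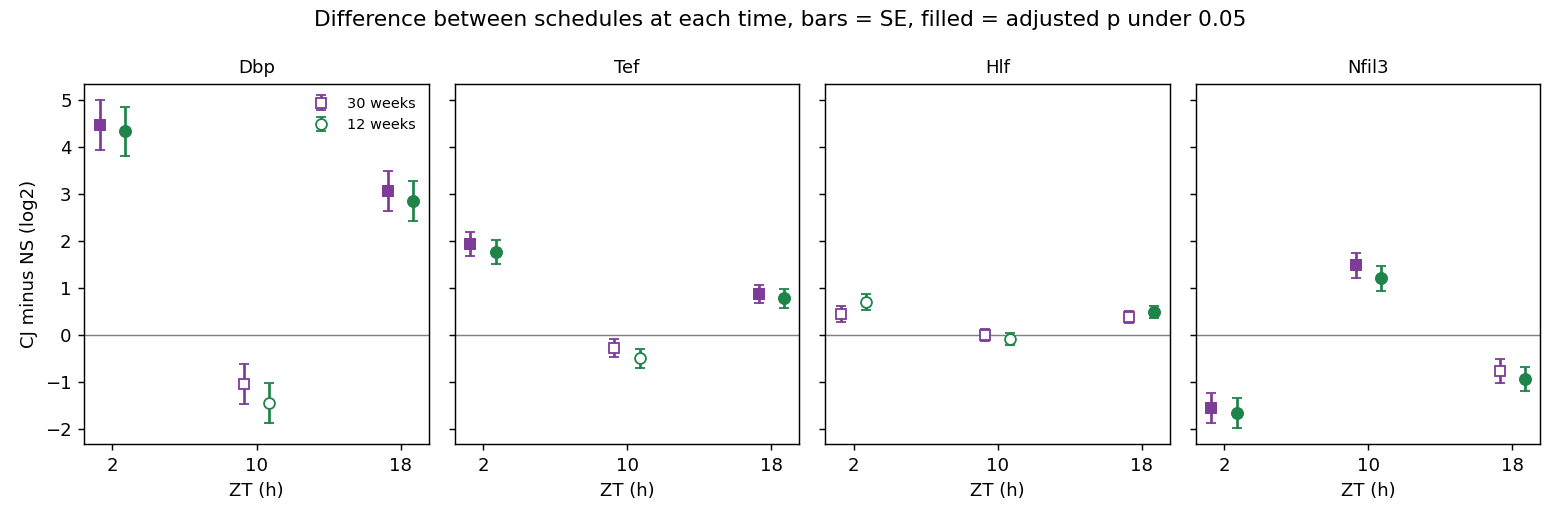
CJ minus NS difference (log2, y axis) of each gene by zeitgeber time in hours (x axis), for 30-week mice (squares, left) and 12-week mice (circles, right). Bars are SEs from the spread shared over all groups. Filled symbols had an adjusted p under 0.05. Dbp and Tef lie above 0 at ZT2 and ZT18 and below 0 at ZT10, and Nfil3 runs the other way.

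The slide, which held 4 arrays, was a batch within which some mice of the 2 schedules could be compared. A CJ and an NS mouse of the same time and age shared a slide in 4 cases, none at ZT2. At ZT10 the CJ minus NS difference within a slide was -0.87 at 30 weeks and -0.77 at 12 weeks for Dbp, -0.24 and -0.27 at those ages for Tef, and 1.58 and 1.21 for Nfil3. At ZT18 it was 3.21 at 30 weeks and 2.92 at 12 weeks for Dbp, 1.00 and 0.83 at those ages for Tef, and -0.73 and -0.46 for Nfil3. For Hlf it was 0.19 at 30 weeks and 0.00 at 12 weeks at ZT10, and 0.31 and 0.59 at those ages at ZT18. Of these 16 values, 14 had the sign of the group difference. The 2 that did not were those of Hlf at ZT10, where the group differences were 0.00 and -0.08. In the 14 cases the mice of the 2 schedules did not overlap, so any pair had to carry that sign. The agreement in sign is therefore no check of the slide, and the sizes are given as description. No slide held 2 times of the same schedule and age, so a daily range within a slide could not be had.

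Averaged over the 3 times on the log2 scale, all 3 activators were higher in CJ mice at both ages, where 5.99% of genes were called at 30 weeks and 4.36% at 12 weeks. Calls as higher made up 1.93% and 1.95% of genes. Dbp was higher by 2.16 ± 0.25 at 30 weeks (adjusted p = 4.96e-05) and 1.91 ± 0.25 at 12 weeks (adjusted p = 0.000198). Tef was higher by 0.84 ± 0.12 at 30 weeks (adjusted p = 0.000175) and 0.68 ± 0.12 at 12 weeks (adjusted p = 0.00213). Hlf was higher by 0.28 ± 0.08 at 30 weeks (adjusted p = 0.0379) and 0.37 ± 0.08 at 12 weeks (adjusted p = 0.0108). Nfil3 differed by -0.28 ± 0.15 at 30 weeks (adjusted p = 0.325) and -0.47 ± 0.15 at 12 weeks (adjusted p = 0.0788). Without the acinar-rich arrays Hlf was not called, with 0.19 at 30 weeks (adjusted p = 0.287) and 0.37 at 12 weeks (adjusted p = 0.0782), and its 30-week call was lost without 12 of the mice in turn. Without the muscle-rich arrays, which left lone mice in some groups, Tef had 0.69 at 12 weeks. Hlf then had 0.24 at 30 weeks and 0.30 at 12 weeks, and none of these differences was called.

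The mean of log2 values weights troughs as much as peaks, and on the linear scale the picture for Dbp was different. The linear mean over the 3 times, in multiples of the array's 75th percentile, was 45.4 in CJ and 43.2 in NS mice at 30 weeks, and 38.9 in CJ and 40.2 in NS mice at 12 weeks. The CJ to NS ratios, 1.05 at 30 weeks and 0.967 at 12 weeks, gave p = 0.904 and p = 0.92 in a two-sided exact permutation test of schedule within time (2400 permutations, smallest possible p 0.000833). On the same scale the ratio at 30 and at 12 weeks was 1.36 and 1.18 for Tef (exact p = 0.101 and 0.319), 1.18 and 1.22 for Hlf (exact p = 0.0608 and 0.0342), and 0.619 and 0.572 for Nfil3 (exact p = 0.155 and 0.0883). None of these 8 tests passed after adjustment over them, the smallest adjusted p being 0.202. The linear means of Nfil3 were 9.58 in CJ and 15.5 in NS mice at 30 weeks, and 8.77 in CJ and 15.3 in NS mice at 12 weeks.

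No CJ mouse lay outside the levels seen over an NS day. For each of the 4 genes all 16 CJ mice lay between the lowest and the highest NS mouse, as held for 24.2% of genes. From lowest to highest mouse, Dbp spanned 4.65-fold in CJ and 136-fold in NS mice, Tef 2.87-fold in CJ and 11.3-fold in NS mice, Hlf 1.97-fold in CJ and 3.43-fold in NS mice, and Nfil3 2.22-fold in CJ and 10-fold in NS mice. Within groups the spread was wider in CJ mice for 3 of the genes. The pooled SD of mice about their group mean was 0.69 in CJ and 0.30 in NS mice for Dbp, 0.31 in CJ and 0.20 in NS mice for Tef, and 0.41 in CJ and 0.21 in NS mice for Nfil3. For Hlf it was 0.15 in CJ and 0.18 in NS mice, with 10 degrees of freedom each and no test made. For Dbp the largest group SDs were at CJ ZT2, with 1.25 at 30 weeks and 1.26 at 12 weeks, where the 2 mice of a group differed by 3.41-fold and 3.44-fold.

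Within CJ groups, mice with more Dbp tended to have less Nfil3. Over the deviations of 16 CJ mice from their group means the Pearson correlation of the 2 genes was -0.837, against -0.173 over 16 NS mice. Tef and Nfil3 correlated at -0.759 in CJ and 0.125 in NS mice, and Hlf and Nfil3 at -0.698 in CJ mice. Dbp and Tef deviated together in both, at 0.823 in CJ and 0.786 in NS mice. The CJ mice of ZT2 and CJ mouse 2 of ZT10 at 12 weeks, whose array was acinar-rich, deviated most in Dbp. Not every CJ group showed the tendency. At ZT10 and 30 weeks, CJ mice with Dbp at 6.04, 5.56 and 5.55 had Nfil3 at 3.50, 3.34 and 3.10. Dbp also spread less in NS mice, with a pooled SD of 0.30 against 0.69 in CJ mice. The correlations are descriptions with no test: values share an array and its scaling, and in groups of 2 the deviations mirror each other.

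**Figure D4:**
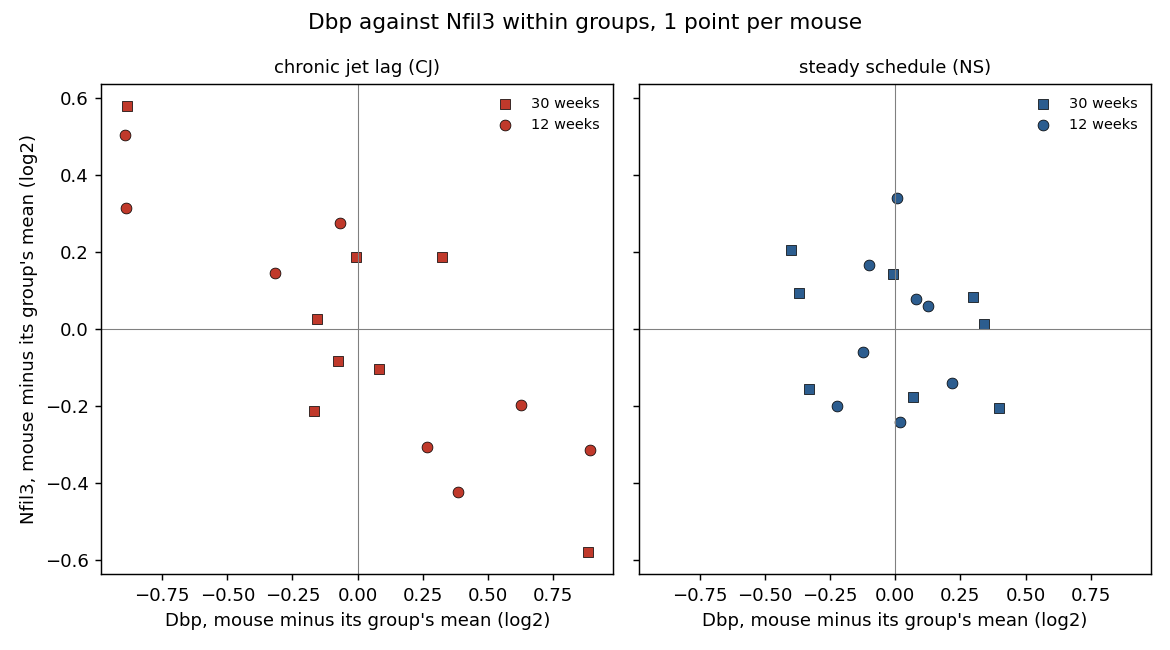
Deviation of Nfil3 from its group mean (log2, y axis) against that of Dbp (log2, x axis) for each mouse, with CJ on the left and NS on the right, and 30-week mice as squares and 12-week mice as circles. The CJ mice run from upper left to lower right (r = -0.837), and the NS mice show little slope (r = -0.173). In CJ the points furthest from 0 on the x axis are the mice of ZT2 and mouse 2 of ZT10 at 12 weeks.

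No age difference was called for any of the 4 genes. Over the mean of the 3 times, 30 minus 12 weeks was 0.29 ± 0.25 for Dbp, 0.24 ± 0.12 for Tef, 0.01 ± 0.08 for Hlf and 0.13 ± 0.15 for Nfil3 in CJ mice, with adjusted p of 0.545, 0.237, 0.936 and 0.667 in limma. In NS mice it was 0.04 ± 0.25 for Dbp, 0.08 ± 0.12 for Tef, 0.11 ± 0.08 for Hlf and -0.05 ± 0.15 for Nfil3, with adjusted p of 0.991, 0.905, 0.741 and 0.968. Over all genes 4.99% were called in CJ and 0.861% in NS mice. Tef in CJ mice had an unadjusted p of 0.0479, and without CJ mouse 2 of ZT2 at 30 weeks its change was 0.44 (adjusted p = 0.0131), while without CJ mouse 1 of that group it was 0.05 (adjusted p = 0.838). The interaction of schedule with age was called for 0 of 4 genes, where 0.00865% of all genes were called, with sizes from -0.09 for Hlf to 0.25 for Dbp.

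The clock genes that act upstream of the members, 14 in number and all measured, were the first of 3 lists set beside them. In CJ mice 4 varied over the day at 30 weeks and 5 at 12 weeks, where 3.71% and 5.67% of all genes did, and in NS mice 13 at each age, where 11.2% and 17.5% did. Without the acinar-rich arrays 2 varied in CJ mice at each age, and in NS mice 13 at 30 weeks and 12 at 12 weeks. Without the muscle-rich arrays it was 1 at 30 weeks and 3 at 12 weeks in CJ mice, and 13 and 12 at those ages in NS mice. In CJ mice the counts over all genes fell as well in either setting. The median range of the list was 0.86 in CJ and 2.38 in NS mice at 30 weeks, and 1.20 in CJ and 2.44 in NS mice at 12 weeks. The profile differed between schedules for 8 at each age, where 1.87% and 1.93% of all genes were called. Without the acinar-rich arrays 0 of the list had such a call at 30 weeks and 1 at 12 weeks, and without the muscle-rich arrays 1 had it at each age. With the acinar and muscle levels as covariates 8 had it at 30 weeks and 1 at 12 weeks. Over all genes the interaction calls also fell in each of these settings. With the covariates they went from 431 to 266 at 30 weeks and from 447 to 37 at 12 weeks.

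By size of the interaction at 12 weeks the called genes were led by Nr1d1, Arntl, Per3, Cry1, Npas2 and Nr1d2. Nr1d1, Per3 and Npas2 were in at least 1 NS group well above background on 0 arrays, so their ranges are not given. Arntl, which encodes BMAL1, ranged over 1.71 in CJ and 5.75 in NS mice at 12 weeks, and its interaction range was 5.20 (adjusted p = 0.000995). Its NS trough at ZT10 was well above background in 2 of 3 mice. Cry1, a repressor of BMAL1 and CLOCK, had an interaction range of 2.86 (adjusted p = 0.00989). Nr1d2, which encodes the repressor REV-ERB beta, ranged over 0.10 in CJ and 2.36 in NS mice, with an interaction range of 2.30 (adjusted p = 0.00211). Its mean level at ZT2, ZT10 and ZT18 was 0.93, 0.96 and 0.86 in CJ mice, against -0.39, 1.42 and -0.87 in NS mice.

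Genes reported elsewhere as targets of PAR bZIP factors or of NFIL3 were the second list, 18 in number, of which 16 could be tested. No probe was matched to Cyp2a5, and Cyp2b13 did not pass the filter on dim probes. In CJ mice 6 of 16 varied over the day at 30 weeks and 9 at 12 weeks, where 3.71% and 5.67% of all genes did, and in NS mice 11 at 30 weeks and 13 at 12 weeks, where 11.2% and 17.5% did. Their median range was 1.27 in CJ and 1.65 in NS mice at 30 weeks, and 1.00 in CJ and 1.60 in NS mice at 12 weeks. The interaction of schedule with time was called for 0 of 16 at 30 weeks and for 1, Cyp2a4, at 12 weeks, with medians of 0.66 and 0.50 over the list and 0.36 and 0.38 over all genes. The call of 12 weeks was lost without the muscle-rich arrays and with the acinar and muscle levels as covariates (0 of 16 each). The daily counts fell in both schedules when arrays were left out, save in NS mice at 30 weeks without the acinar-rich arrays. Over all genes the daily counts fell too, in CJ mice in either setting and in NS mice without the muscle-rich arrays. In NS mice without the acinar-rich arrays the count over all genes fell at 30 weeks, where that of the list did not. Whether the list fell more than all genes was not tested. Without the acinar-rich arrays 3 of the list varied in CJ mice at 30 weeks and 1 at 12 weeks, and in NS mice 11 at 30 weeks and 9 at 12 weeks. Without the muscle-rich arrays it was 3 at 30 weeks and 4 at 12 weeks in CJ mice, and 6 and 10 at those ages in NS mice.

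The called targets of widest range in NS mice at 12 weeks were Per1, Alas1, Per2, Cyp2b10, Cyp7a1 and Por. Per1 and Per2, clock repressors that are also in the upstream list, ranged over 2.18 (adjusted p = 0.00285) and 3.26 (adjusted p = 1.3e-05) in CJ mice, against 4.25 (adjusted p = 9.41e-07) and 3.16 (adjusted p = 1.5e-06) in NS mice. The ZT2 trough of Per2 was well above background in only 1 of 2 mice of each schedule. Alas1, the first enzyme of haem synthesis, ranged over 2.05 (adjusted p = 0.0311) in CJ and 3.41 (adjusted p = 0.000102) in NS mice. Cyp2b10, a drug-metabolising cytochrome P450, ranged over 0.52 (adjusted p = 0.797) in CJ and 2.72 (adjusted p = 0.000522) in NS mice. Cyp7a1, which limits the rate at which bile acids are made, ranged over 2.13 (adjusted p = 0.00311) in CJ and 2.45 (adjusted p = 0.000372) in NS mice. Por, the electron donor of microsomal cytochromes P450, ranged over 1.90 (adjusted p = 8.07e-05) in CJ and 2.21 (adjusted p = 6.13e-06) in NS mice, and its interaction range was 0.52 (adjusted p = 0.626). Cyp2a4, a steroid hydroxylase, ranged over 1.12 in CJ and 2.15 in NS mice, with an interaction range of 1.37 (adjusted p = 0.0251), the call that was lost in the settings just given. The Cyp2a and Cyp2b families hold near copies, so these probes may read more than 1 gene.

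Averaged over the 3 times, 5 of 16 targets were higher in CJ mice at 30 weeks and 2 at 12 weeks, where 1.93% and 1.95% of all genes were, and 0 were lower. Over 17 other settings the number called ran from 0 to 6 at 30 weeks and from 0 to 3 at 12 weeks. Por was higher by 0.83 ± 0.13 at 30 weeks (adjusted p = 0.000352) and 0.78 ± 0.13 at 12 weeks (adjusted p = 0.00147). Per1 was higher by 0.99 ± 0.21 at 30 weeks (adjusted p = 0.00634) and 0.85 ± 0.21 at 12 weeks (adjusted p = 0.0261). At 30 weeks Alas1 was higher by 1.11 ± 0.25 (adjusted p = 0.00947), and the other called targets were Per2 at 0.60 ± 0.18 (adjusted p = 0.0466) and Nr1i3, the nuclear receptor CAR, at 0.35 ± 0.10 (adjusted p = 0.0485). The median of the list was 0.25 at 30 weeks and 0.18 at 12 weeks, against -0.01 and 0.02 at those ages over all genes.

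**Figure D5:**
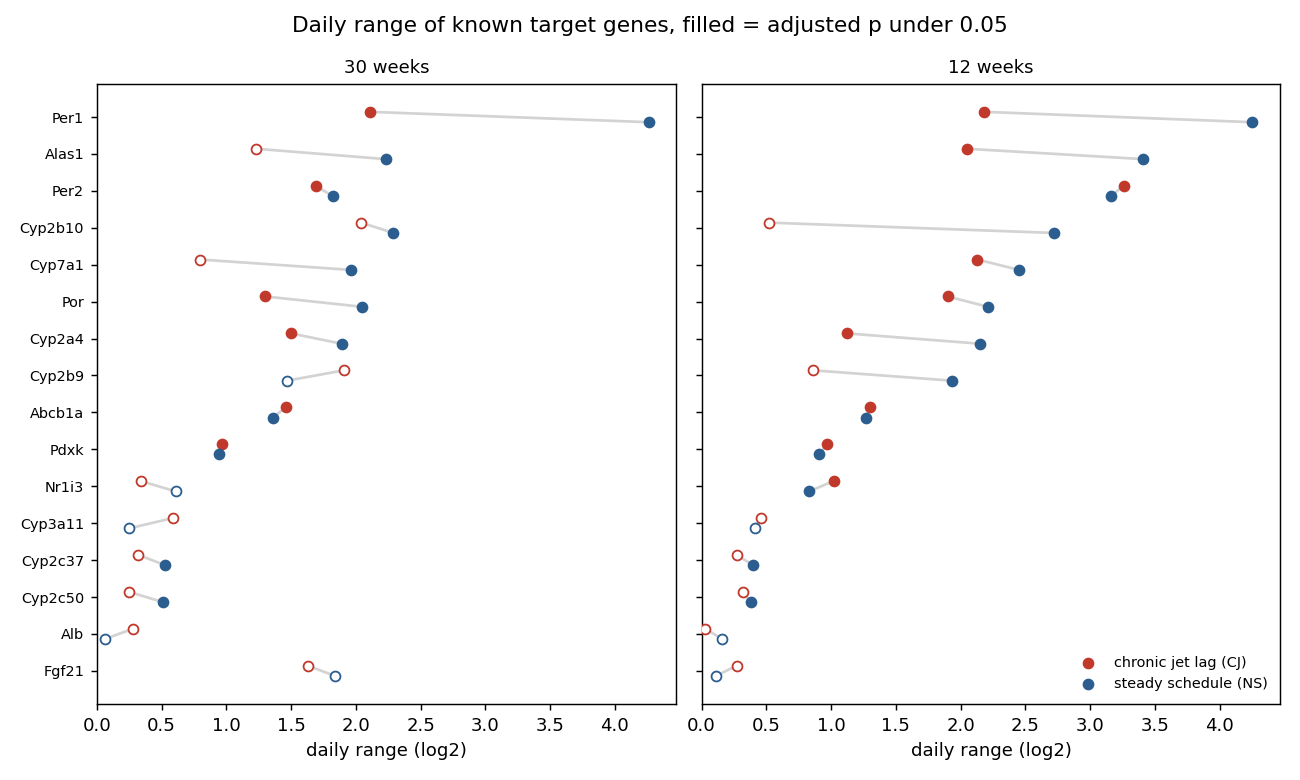
Daily range (log2, x axis) of the 16 tested target genes (y axis, ordered by the NS range at 12 weeks), at 30 weeks on the left and 12 weeks on the right, with CJ in red above NS in blue. Filled symbols had an adjusted p under 0.05. Per1, Per2, Por, Cyp2a4, Abcb1a and Pdxk had filled symbols in both schedules at both ages.

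The third list held 6 relatives of the C/EBP family, which also bind as basic leucine zippers and can occupy sites that resemble D-boxes. In CJ mice 0 of 6 varied over the day at 30 weeks and 1 at 12 weeks, and in NS mice 2 at 30 weeks and 4 at 12 weeks, the last count being 2 without the acinar-rich arrays. In CJ mice at 12 weeks it was 0 without the muscle-rich arrays. Daily variation was called for 3.71% and 5.67% of all genes in CJ mice at 30 and 12 weeks, and for 11.2% and 17.5% in NS mice. The interaction with time was called for 0 of 6 at either age, as was the mean difference between schedules. Over all genes the shares at 30 and 12 weeks were 1.87% and 1.93% for the interaction and 5.99% and 4.36% for the mean difference. With 6 genes, 0 calls are near such shares. At a single time, 2 of 6 were lower in CJ mice at ZT10 and 1 was higher at ZT18, both at 12 weeks. There 1.81% and 2.88% of all genes were called. Over 17 other settings these counts ran from 0 to 2 and from 0 to 1. Cebpd ranged over 0.67 in CJ mice (adjusted p = 0.183) and 1.16 in NS mice (adjusted p = 0.00719) at 12 weeks. The CJ gene called was Ddit3, a stress-induced family member, with a range of 1.60 (adjusted p = 0.00029) in CJ and 0.66 (adjusted p = 0.0659) in NS mice at 12 weeks.

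Genes with the likest pattern were found by Pearson correlation over the 12 group means among 3049 named genes whose means ranged over at least 1 log2 unit. These correlations are descriptions, and all rest on the same 32 arrays. Among the genes most like Dbp were Narf (0.981), Klhl21 (0.979) and Ppat (0.971), and among those most unlike it were Pxmp4 (-0.98) and Pnrc1 (-0.96). Tef was most like Per3 (0.989), Per1 (0.974), Mtss1 (0.972), Klf13 (0.966) and Ppat (0.964), and most unlike Mitf (-0.969), Grk5 (-0.95) and Clpx (-0.947). Per3 was well above background on 27 arrays.

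Hlf was most like Mtss1 (0.975), Per1 (0.968), Tef (0.963), Noct (0.96) and Pfkfb3 (0.955), and most unlike Mpzl1 (-0.968), Grk5 (-0.955) and Loxl4 (-0.95), the last well above background on 15 arrays. Nfil3 was most like Net1 (0.971), Pxmp4 (0.953), Olfr1368 (0.947), Nedd4l (0.947) and Abtb2 (0.945), and most unlike Ppargc1b (-0.98), Cyp2g1 (-0.963) and Clmn (-0.959). Pxmp4, a peroxisomal membrane protein, thus stood at opposite ends for Dbp and Nfil3. Ppargc1b, a coactivator of mitochondrial genes, had group means of -1.12, -0.97 and -1.49 in CJ mice at 12 weeks, against -2.15, -0.25 and -1.91 in NS mice. Among the members themselves the group means of Dbp and Nfil3 correlated at -0.943 over all 12 groups, but at 0.793 over the 6 CJ groups and -0.995 over the 6 NS groups. Those of Tef and Nfil3 correlated at 0.818 in CJ and -0.905 in NS groups, and those of Hlf and Nfil3 at 0.715 in CJ and -0.85 in NS groups. Tef and Hlf correlated at 0.951 in CJ and 0.983 in NS groups. The CJ group means of Nfil3 span little, with daily ranges of 0.10 at 30 weeks and 0.27 at 12 weeks.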

How the data were processed

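Liver RNA of 32 mice was measured on 1-colour Agilent arrays. The deposited scanner files hold intensities, and the processed signal had been background-subtracted by the authors' scanner software (Feature Extraction 11.0.1.1 per the file headers, 9.1 per the submitters' processing notes). The authors' table of log2 values, normalized between arrays with a batch effect removed per the series' design text, was used as an alternative. Its centring is unknown, its column medians are near 9.8, and each of its 32 columns matched its own array best (r of at least 0.992).

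Control spots and outlier-flagged spots were left out, spots of a probe averaged, and log2 processed signals scaled by each array's 75th percentile (signals of 128 to 302.5). A probe was kept if all arrays of some group had it well above background (30487 probes), and the brightest probe stood for a gene (23109 genes, 14082 with a symbol). limma 3.58.1 in R 4.3.3 fitted 12 group means with the slide (8 slides of 4 arrays) as a random block (correlation 0.245), with Benjamini-Hochberg adjustment over all genes and calls at 0.05. The number of arrays limits the precision, and nothing in the labels ties mice to litters. The scripts were tested on simulated data.

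The 4 genes and all gene lists were chosen with earlier results of these data known. Genes named are the 4 members, up to 6 called genes per list and comparison with the largest size, and the 5 most and 3 least alike by correlation. Some genes that this rule names are not reported here. Mouse numbers in the labels do not pair mice: same-numbered mice of the 2 schedules correlated between -0.426 and 0.215 over 16 pairs. Alternatives covered background correction, scaling, filters, slide, scan day, marker levels, fitted samples and single mice. The planned normexp alternative used the median signal, as the files used here give no mean signal. Sequences are RefSeq promoters of GRCm38.p6.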

Additional observations from a re-analysis of the deposited data

Results flagged for a closer look

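The daily profile of 3 of the 4 genes differed between CJ and NS mice by the test of schedule with time itself. The CJ minus NS difference ranged over the day by 5.53 for Dbp (adjusted p = 0.000532), 2.21 for Tef (adjusted p = 0.00239) and 3.03 for Nfil3 (adjusted p = 0.000932) at 30 weeks. At 12 weeks it ranged by 5.78 for Dbp (adjusted p = 0.000186), 2.27 for Tef (adjusted p = 0.00144) and 2.86 for Nfil3 (adjusted p = 0.000987). Groups of 2 or 3 mice are too small for a test of single outlying mice.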

How the results depend on the processing

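Of the 4 genes, 0 at 30 weeks and 2 at 12 weeks varied over the day in CJ mice, and 4 at each age in NS mice. With quantile normalization, the authors' deposited table, or trended robust variances, 1 was called in CJ mice at 30 weeks. At 12 weeks 0 were called in CJ mice without the acinar-rich arrays, without the muscle-rich arrays, or with only the groups compared in the fit. The 3 interaction calls at 30 weeks became 0 without the acinar-rich and 1 without the muscle-rich arrays. The 3 calls of the mean difference at 12 weeks became 1 without the muscle-rich arrays. Of 12 differences at a single time, 6 were called at 30 weeks and 8 at 12 weeks. These counts were 3 and 3 with the slide as a fixed block, 3 and 5 without acinar-rich arrays, 2 and 0 without muscle-rich arrays, and 2 and 1 with only the groups compared. At 12 weeks they were 5 without a filter on dim probes, 5 without a slide block and 4 with the marker levels as covariates. The mean difference of Dbp at 12 weeks was -0.05, against 1.91, when linear levels were averaged, since that mean gives the peaks more weight. The settings without marker-rich arrays, with scan day, with linear means, with the dimmer Dbp probe and without genes that have missing values were chosen after seeing the data.

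Leaving out single mice gave 0 to 1 (CJ, 30 weeks), 0 to 2 (CJ, 12 weeks), 4 to 4 (NS, both ages) daily calls, 3 to 3 and 3 to 4 interaction calls, 5 to 7 and 5 to 9 calls at a single time, 2 to 4 and 3 to 4 calls of the mean difference, and 0 to 1 (CJ) and 0 to 0 (NS) calls of age. The lone mouse left in a ZT2 group was then assumed to vary like the others. The age call was Tef without CJ mouse 2 of ZT2 at 30 weeks. With the mouse number as a replicate block the counts were 0, 2, 4 and 4 for daily variation, 3 and 3 for the interaction, 6 and 8 at a single time, 3 and 3 for the mean, and 0 and 0 for age, as without it.

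The number of all genes called moved more: 431 and 447 interaction calls became 22 to 1239 at 30 weeks and 37 to 731 at 12 weeks over 18 settings. Scaling moved the median of all genes by at most 0.04. The causes of these changes were not tested, and with 2 or 3 mice a group a missed threshold does not show equal levels.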
